A study of Mus musculus with 3 samples.

Results

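The change of H3K4me3 from late spermatocytes to elongating spermatids was described over all 11140 promoters of the deposited table, which are also all promoters of the series, in 2 of its 3 libraries. The libraries came from testes of adult C57BL/6J mice and were made from pachytene/diplotene spermatocytes (PD) and from elongating spermatids (ES). The third library, from leptotene/zygotene spermatocytes (LZ), was used only as a readout that enters neither level compared. All cells came from collagenase- and trypsin-digested testes, their chromatin was cut with micrococcal nuclease (MNase), and the same H3K4me3 antibody was used. No treatment or genotype distinguishes the groups. The labels do not say how the stages were separated, how pure the cells were or how many animals were pooled.

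H3K4me3 is trimethylation of lysine at a fixed position of the tail of histone H3. In most cells it sits on the nucleosomes next to active or poised transcription start sites, often in CpG islands, and is written by complexes of the SET1 and MLL methyltransferases. In meiotic prophase the enzyme PRDM9 also writes it at recombination hotspots. Pachytene and diplotene spermatocytes are in the later part of that prophase, with homologous chromosomes first fully paired and then separating. Elongating spermatids are haploid cells after both divisions, in which most histones are exchanged for protamines, and nucleosomes kept in sperm are often found at promoters.

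The PD column summed to 4826890 counts, the ES column to 17989325 and the LZ column to 1654906. These sums cover the listed promoters and not whole libraries. Levels are given in CPM, the counts of a promoter per 1000000 counts of its column, so they are shares and cannot show a change common to all promoters. Promoters carry identifiers of assembled loci without gene names, and 0 of them matched a RefSeq gene table. The labelled cell types could therefore not be checked against marker genes. Locus numbers run from 1 to 27289, with many numbers absent, and how the listed promoters were chosen was not examined. With 1 library per stage there is no replicate error and no test. Ratios and ranks describe these libraries. Exact 95% intervals, Poisson for a level and Clopper-Pearson for a share or a ratio, cover counting error only and take reads as independent. PCR reads that carry no molecular identifier can be copies of 1 molecule, and the intervals are then too narrow. MNase has sequence preferences that can move counts between promoters, and their part in the results was not tested.

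At the lower end of the ranking, H3K4me3 counts were spread over promoters far more evenly in elongating spermatids than in pachytene/diplotene spermatocytes. At the upper end they were about as uneven in both. Counts at weak promoters need not be H3K4me3, because none of the 3 libraries is an input control. The median of the lowest 10% of promoters was higher for ES, at 5.45 CPM, than for PD, at 1.04 CPM. How much of the low counts is unspecific background was not tested. In PD the 25th percentile was 14 counts and the 75th was 613, a ratio of 43.8. In ES the same percentiles were 406 and 1773 counts, a ratio of 4.37. From the 10th to the 90th percentile the range was 1.45 to 318 CPM in PD and 9.17 to 244 CPM in ES. The lower 5578 promoters of PD, those at or below its median of 58 counts, held 2.03% of the PD counts (interval 2.01 to 2.04). The lower 5571 promoters of ES, at or below its median of 873 counts, held 13.0% of the ES counts. At the upper end the libraries were similar. The most marked 1114 promoters held 47.8% of the counts in PD and 42.7% in ES, and 50% of the counts lay on 1184 promoters in PD and on 1448 in ES.

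The promoters that carried the mark differed between the stages. The PD lower group was 50.1% of all promoters. By its choice on PD counts it held only 2.03% of these, and it held 54.3% of the ES counts, near its share of promoters. In LZ the same promoters held 14.5%. The 1184 promoters with 50% of the PD counts, 10.6% of all promoters, held 13.2% of the ES counts and 30.9% of the LZ counts. In the other direction, the 1448 promoters with 50% of the ES counts were 13.0% of all promoters. They held 9.85% of the PD counts and 11.1% of the LZ counts. The shares of counts are taken within a library and need no scaling between libraries. Lists of the most marked promoters of PD and ES overlapped about as much as their share of all promoters. The first 100 of PD and the first 100 of ES, each 0.898% of all promoters, had 1 promoter in common. The first 500, which are 4.49% of all promoters, had 24 (4.80% of each list). The first 1114, which are 10% of all promoters, had 96 (8.62%). The LZ and PD lists of the same lengths had 17, 185 and 571 in common.

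The ranks of single promoters in ES followed those in PD only loosely. A percentile rank runs here from 0 for the fewest to 100 for the most counts in a library. The median shift between PD and ES, in either direction, was 27.7 percentile points, and 19.6% of promoters (2184) lay within 10 points of their PD rank. A shift of at least 50 points was found at 2009 of the 11140 promoters, of which 1488 moved up and 521 moved down. The shifts that unrelated rankings would give were not calculated, so these sizes are description only. The Spearman rho across all promoters was 0.21, as a description of promoters that share their library.

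**Figure D1:**
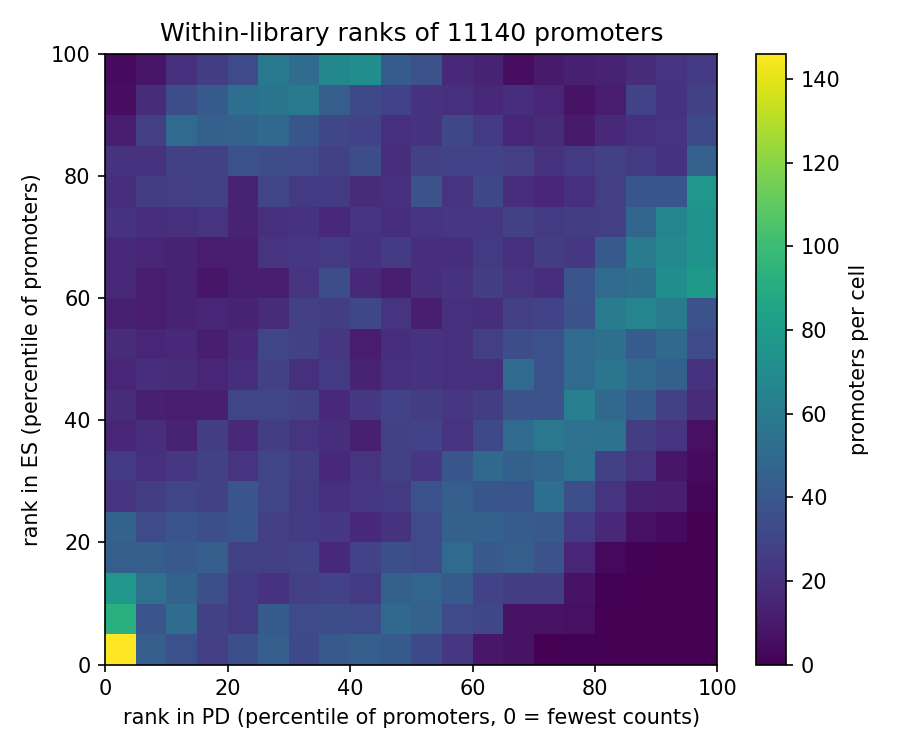
Number of promoters in each cell of a grid of PD percentile rank (x axis) against ES percentile rank (y axis), 20 bins each, with colour for promoters per cell. One band runs upward on the right, from PD ranks near 50 to the highest, another patch lies at the top left, and the lower right corner is almost empty, with 5 promoters in the highest 20% of PD and the lowest 20% of ES.

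Strong marking in PD went mostly with a middle position in ES, and rarely with a weak one. Each library was divided by rank into 4 quartiles and 10 deciles of promoters, numbered from the least to the most marked. Of the 2786 promoters in PD quartile 4 (at least 613 counts), 1285 (46.1%) were in ES quartile 3 and 633 (22.7%) in ES quartile 4. Another 783 (28.1%) were in ES quartile 2 and 85 (3.05%) in ES quartile 1. In PD decile 10, with 1537 to 4549 counts, the lowest ES count was 372, and 0.359% of promoters were in ES quartile 1. Of the 2228 promoters in the highest 20% of PD, 5 (0.224%) were in the lowest 20% of ES, with 202 to 291 ES counts, while 1670 were in the upper 50%.

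Weak marking in PD went with both ends of ES. PD quartile 1 comprised 2707 promoters with 0 to 13 counts. Of these, 1146 (42.3%) were also in ES quartile 1, 522 (19.3%) in quartile 2 and 371 (13.7%) in quartile 3. The other 668 (24.7%) were in quartile 4, near the share of all promoters. PD quartile 2, with 14 to 57 counts at 2858 promoters, sent 943 (33.0%) to ES quartile 4, the most of any PD quartile, and 783 (27.4%) to ES quartile 1. The least marked promoters of PD were also often the least marked of ES. Of the 644 promoters in the lowest of 20 PD rank bins, with at most 5 counts, 146 (22.7%) were in the lowest of 20 ES rank bins, which is the fullest cell of the rank map.

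The range of ES counts was wide at promoters weak in PD and narrow at those strong in PD. In PD quartile 2 the ES count was 125 at the 10th and 6284 at the 90th percentile of promoters, a ratio of 50.3. In PD quartile 4 these were 578 and 3069, a ratio of 5.31. Across PD deciles this ratio was highest, at 55.1, in decile 5, and it was 11.1 in decile 7 and 5.06 in decile 10. Counting error, with reads taken as independent, was small beside such ranges. A count of 165, the 10th percentile of ES, carries an interval of 141 to 192. The medians did not follow the PD order. The median ES count was 338 in PD decile 1, 1014 in decile 4, 657 in decile 6 and 1342 in decile 10.

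**Figure D2:**
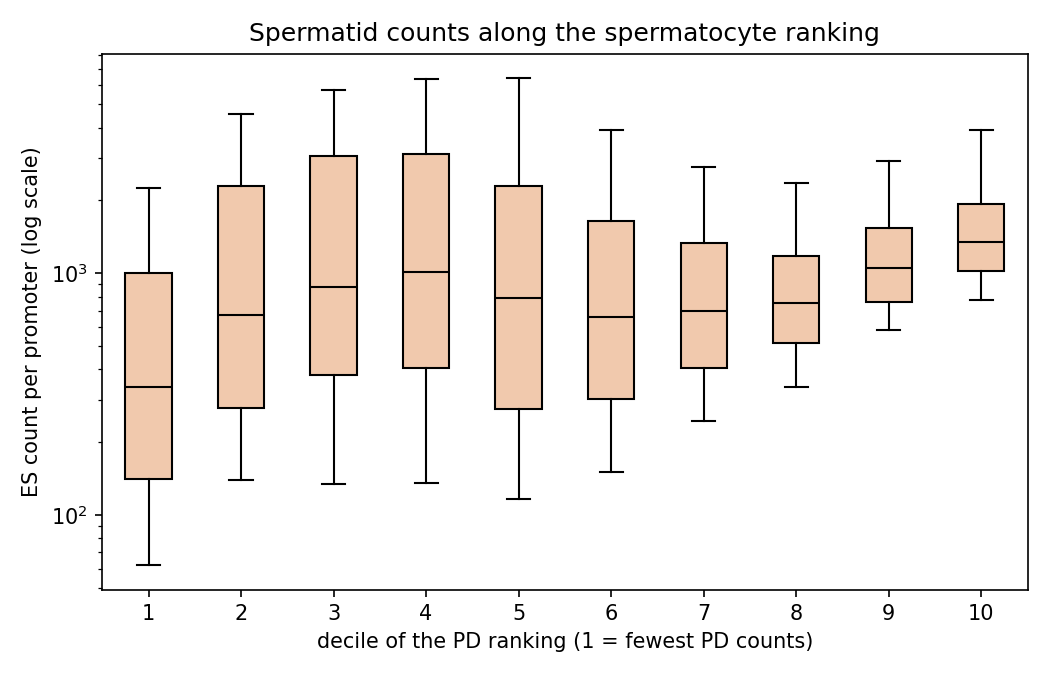
ES count per promoter (log scale) in each decile of the PD ranking, with boxes from the 25th to the 75th percentile, a line at the median and whiskers from the 10th to the 90th percentile of promoters. The box is tall in the deciles of weak PD marking and short in the highest deciles, and the median has maxima at 1014 counts in decile 4 and 1342 in decile 10.

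Read along the ES ranking, PD marking was highest in the upper middle and low at both ends. ES promoters were divided into 20 bins of about 557. The median PD count was 13 in bin 1 (2.69 CPM), 35 in bin 5 and 320 in bin 10. It was highest, at 717 counts (148 CPM), in bin 13, where ES counts were 1109 to 1258. Beyond that it was 124 in bin 16, 24 in bin 18 and 28 in bin 20 (5.80 CPM), where ES counts began at 6261. The share of promoters belonging to PD quartile 4 followed the same course, with 0.179% in bin 1, 52.3% in bin 13 and 16.5% in bin 20. The single coefficient of 0.21 joins these opposite trends. Below the 65th ES percentile, a division chosen after these values were seen, the rho was 0.46 over 7240 promoters, and above it -0.25 over 3900.

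The LZ library, which had no part in the ES or PD ranks, showed the same course along ES. Its median was 19 counts in ES bin 1, 231 in bin 13, where it was highest, and 46 in bin 20. In CPM these were 11.5, 140 and 27.8. LZ and PD ranks are themselves similar, with a rho of 0.78, so the LZ course is not separate evidence on what distinguishes PD.

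**Figure D3:**
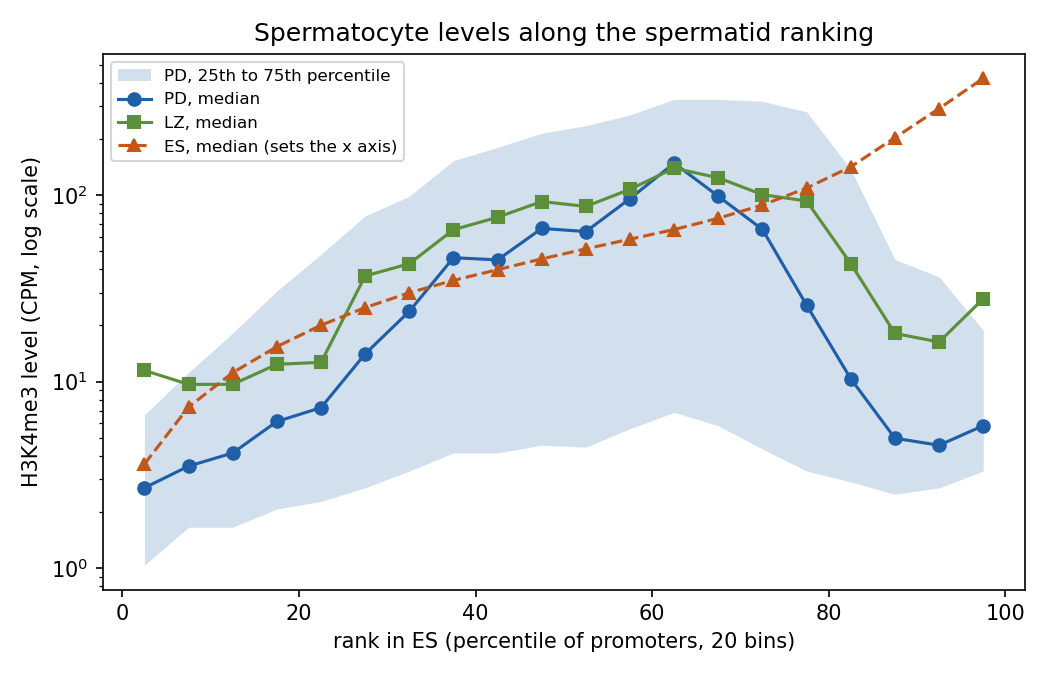
Median level in CPM (log scale) of PD, LZ and ES for 20 bins of promoters ordered by ES count, with the band for the 25th to 75th percentile of PD. PD and LZ both reach their highest medians, 148 and 140 CPM, in bin 13, and both are low in bin 20, at 5.80 and 27.8 CPM.

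The 1114 promoters in ES decile 10 were mostly, but not all, weak in PD. Below the 50th PD percentile lay 751 of them (67.4%), with a median of 17 counts in PD, 18 in LZ and 6284 in ES. Most of these, 662 promoters, were between the 15th and the 50th PD percentile, and so not among the very lowest of PD. A smaller set of 188 (16.9%) was in PD quartile 4, with medians of 1568 counts in PD and 376 in LZ. The ES median of these 188 was 6185 counts, close to that of the 751. Both sets were chosen for ES counts of at least 4389, so like ES medians follow in part from that choice. Decile 10 of both libraries held 96 promoters.

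The 668 promoters that passed from PD quartile 1 to ES quartile 4 had a median of 10 counts in PD (2.07 CPM) and 3657 in ES (203 CPM). They held 0.130% of the PD counts and 15.05% of the ES counts. In LZ their median was 13 counts (7.86 CPM), with 363 of them in LZ quartile 1 and 284 in LZ quartile 2. The 1146 promoters lowest in both PD and ES had 7 counts in PD, 183 in ES and 11 in LZ at the median. The like PD levels of these 2 groups and their ES medians of 10.2 and 203 CPM follow from the quartiles that chose them. Their LZ medians, 11 and 13 counts, were close. LZ counts had no part in the choice, but LZ and PD ranks are similar (rho 0.78) and both groups were chosen as low in PD. The close LZ medians are therefore not separate evidence.

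The 85 promoters that passed from PD quartile 4 to ES quartile 1 had a median of 822 counts in PD (170 CPM), near the lower limit of that quartile, and 339 in ES (18.8 CPM). Their PD counts ran from 618 to 1914 and their ES counts from 77 to 402. In LZ their median was 137 counts (82.8 CPM), and 42 of them were in LZ quartile 3 and 22 in LZ quartile 4. Of the 633 promoters in quartile 4 of both PD and ES, 502 (79.3%) were in LZ quartile 4, with a median of 404 counts (244 CPM).

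LZ levels were then compared among promoters of like PD level, since LZ counts enter neither rank. In PD decile 6 (58 to 152 counts), the 381 promoters in ES quartile 1 had a median LZ percentile of 41.8 and the 263 in ES quartile 4 had 63.2. Their PD medians were 94 and 91 counts, and their LZ medians 28 and 135. In PD decile 7 the LZ percentiles were 48.3 and 67.9, in decile 8 56.6 and 74.8, and in decile 9 61.9, for 27 promoters, and 83.5. Among promoters with moderate to strong PD marking, those weak in ES thus had the lower LZ medians as well. PD medians also differed in the upper deciles, at 544 and 598 counts in decile 8 and at 1048 and 1254 in decile 9. At lower PD levels the order was mixed. The LZ percentiles of ES quartiles 1 and 4 were 9.15 and 16.9 in PD decile 1, 33.3 and 27.3 in decile 3 and 41.3 and 36.1 in decile 4. The median LZ counts of these groups were 8 to 27, so that counting error is large for a single promoter. The error of the group medians was not calculated. Within PD deciles the rho of LZ and ES ranks was -0.07 in deciles 2 and 3 and highest, at 0.45, in decile 6.

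**Figure D4:**
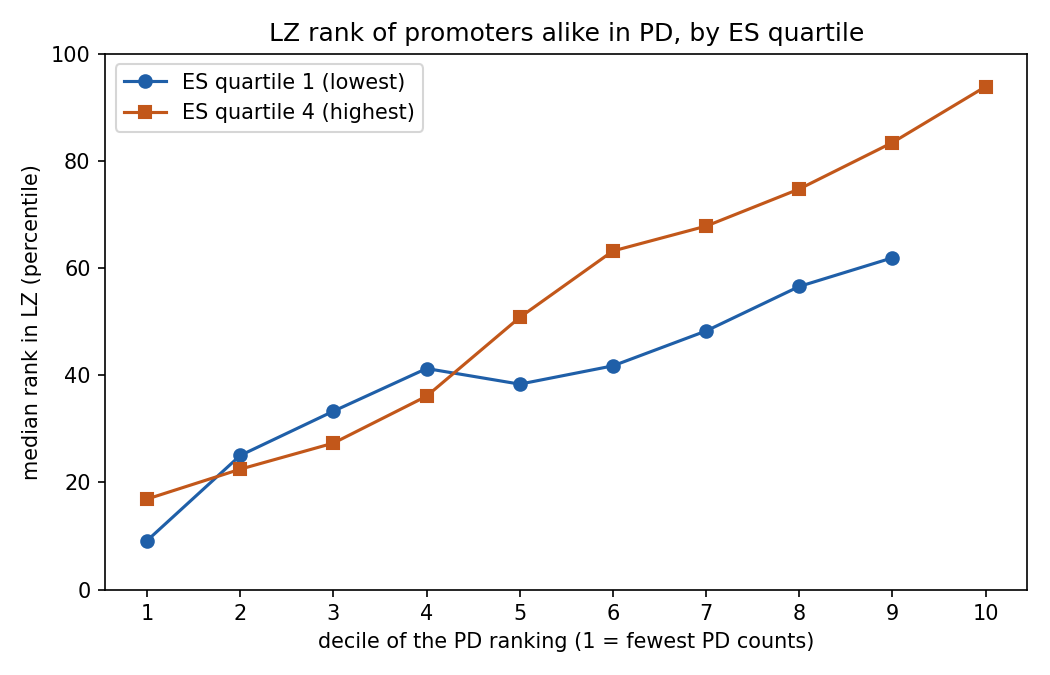
Median LZ percentile rank (y axis) of promoters in ES quartile 1 and in ES quartile 4, within each decile of the PD ranking (x axis). ES quartile 4 lies above ES quartile 1 in deciles 5 to 9 (63.2 against 41.8 in decile 6), the order is mixed in deciles 1 to 4, and ES quartile 1 has no point in decile 10, which held 4 such promoters.

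Ratios of ES to PD were calculated from CPM with 1 count added in proportion to the column sum. At 11078 promoters the library with the higher level had at least 20 counts. Of these, a promoter counted as apart when its ratio was at least 2-fold. ES was higher at 5807 promoters (52.4%) and lower at 3297 (29.8%). With column sums, increases went further than decreases. At 4-fold the numbers were 4923 (44.4%) and 1964 (17.7%). At least 8-fold higher in ES were 3890 promoters (35.1%) and at least 8-fold lower 408 (3.68%). At 16-fold the numbers were 2644 (23.9%) and 23 (0.208%), and at 32-fold 1790 (16.2%) and 1 (0.00903%). ES was at least 64-fold higher at 1053 promoters (9.51%), and at 0 promoters 64-fold lower. The low end of the libraries differed too, since the lowest ES promoter had 8 counts and the 10th percentile was 9.17 CPM in ES against 1.45 CPM in PD.

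How promoters divided into higher and lower ones changed with the scaling. Over all promoters the median log2 ratio was 1.26 with column sums, 0.82 with TMM factors and 0.72 after subtraction of a background from each library. Quantile normalization gave -0.37, and median-of-ratios factors, which set it near 0 by construction, gave 0.034. Of the promoters counted as apart, 63.8% were higher with column sums. Median-of-ratios factors gave 50.8%, and quantile normalization gave 45.4% and turned 130 of the higher promoters to lower. Under all 5 scalings, 3365 promoters were higher in ES and 3183 lower. The 3365 had a median of 14 counts in PD (2.90 CPM) and 2126 in ES (118 CPM), and held 1.76% of the PD and 57.9% of the ES counts. The 3183 had a median of 1072 counts in PD (222 CPM) and 809 in ES (45.0 CPM), and held 76.5% of the PD and 15.6% of the ES counts. Being lower in ES did not always mean being weak in ES. Of the 3183, 646 were in ES quartile 1, 1092 in quartile 2, 1244 in quartile 3 and 201 in quartile 4. Each ES quartile held about 25% of all promoters, and the median ES percentile of the 3183 was 47.1. The PD and ES levels of these sets follow from the ratios that chose them. In LZ, which enters no ratio, the medians were 15 counts (9.06 CPM) for the promoters higher in ES and 272 (164 CPM) for those lower. That order goes with the PD level, and within PD deciles 5 to 8 it was the other way round. With column sums, the LZ median in PD decile 6 was at percentile 63.8 for the 535 promoters higher in ES and 36.1 for the 147 lower. In decile 7 the values were 67.4 for 200 promoters and 52.4 for 342, and in decile 8 they were 76.7 for 50 and 71.9 for 803.

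**Figure D5:**
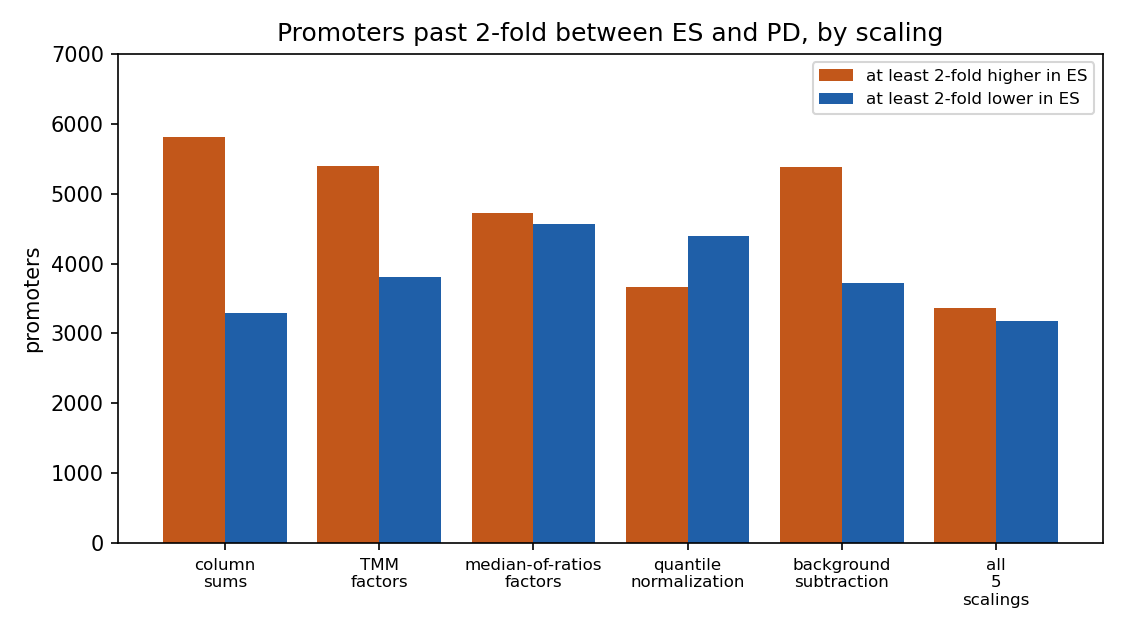
Number of promoters at least 2-fold higher (orange) and at least 2-fold lower (blue) in ES than in PD under each of 5 scalings, and under all of them together. Higher promoters outnumber lower ones with column sums (5807 and 3297) and not with quantile normalization (3660 and 4398), and 3365 and 3183 are common to all scalings.

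Identifiers without gene names say little, so 4 promoters are named, those with the largest gains and losses of rank. Their selection by rank makes their ratios extreme by construction. The promoter of locus MSTRG.16464 had 6 LZ counts, 4 PD counts and 6912 ES counts, and rose from percentile 3.51 to percentile 96.3. Its level was 0.829 CPM in PD (interval 0.226 to 2.12) and 384 CPM in ES (375 to 393), a ratio of 464 by the counts alone (181 to 1702). MSTRG.25815 had 11, 6 and 10189 counts in the same order and rose by 92.5 percentile points, from 1.24 CPM (0.456 to 2.71) to 566 CPM (555 to 577). With ratios resting on 4 and 6 PD counts, the order of these 2 promoters is within counting error.

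The largest losses of rank were smaller. At MSTRG.12373 the counts were 107 (LZ), 744 (PD) and 77 (ES), and the rank fell by 74.2 percentile points. MSTRG.8339 had 256, 781 and 122 counts, or 155 CPM in LZ, 162 CPM in PD (151 to 174) and 6.78 CPM in ES (5.63 to 8.10). The PD level of MSTRG.8339 was 23.9 times the ES level (19.7 to 29.1), and its rank fell by 71.3 points. MSTRG.8339 was thus marked in both spermatocyte libraries at similar CPM, whereas the LZ level of MSTRG.12373, at 64.7 CPM (53.0 to 78.1), lay below its PD level of 154 CPM (143 to 166). Both fell under all 5 scalings, and the promoters of MSTRG.16464 and MSTRG.25815 rose under all 5.

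A single promoter held first place in all 3 libraries and therefore had no change of rank. It had 4549 counts in PD, close to the 4515 of the next promoter, and 185534 in ES, where the next had 16289. Its share rose from 0.0942% of the PD counts (0.0915 to 0.0970) to 1.03% of the ES counts (1.03 to 1.04). Its log2 ratio was 3.45 with column sums and 0 with quantile normalization, which equates the first places by construction.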

How the data were processed

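The authors' deposited table holds raw counts per promoter, not normalized, with 1 column for each of 3 H3K4me3 libraries. Per the submitters' processing notes, which give no versions, Trim Galore and STAR were used with mm10. The name of the deposited table gives 2 kb promoters. The labels state neither the placement of that window, nor the counting tool, nor the treatment of duplicates. STAR allows spliced alignments unless told otherwise, and its settings are not stated either. Columns were matched to libraries by the description label. Members and rules were chosen with earlier results of these data known.

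CPM, percentile ranks (average ranks for ties) and ratios were computed with Python 3.11.15, numpy 2.4.6, pandas 2.3.3 and scipy 1.17.1. Quartiles, deciles and the 20 bins were cut on percentile ranks, so ties make their sizes unequal. As alternatives, quantile normalization, median-of-ratios factors, TMM factors (edgeR 4.0.16), subtraction of the median of each library's lowest 10% of promoters (1.04 CPM in PD and 5.45 CPM in ES), other thresholds, and thinning to 1654906 counts were tried. No count test was run, because each stage has 1 library. The named promoters were to be the 2 with the largest gain and the 2 with the largest loss of rank, with at least 20 counts in the higher library, and the promoter with the most ES counts.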

Additional observations from a re-analysis of the deposited data

How the results depend on the processing

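No paired analysis was possible because only 1 library stands for a stage, so no replicate could be left out either. The 4 named promoters kept their directions under all 5 scalings, and both counts of promoters passing between the outer quartiles stayed within 1.5 times after thinning. The median log2 ratio, 1.26 with column sums, was 0.72 after background subtraction, 0.82 with TMM factors, 0.034 under median-of-ratios scaling, 1.27 without the promoter with the most counts, 1.29 with a minimum of 20 counts and -0.37 with quantile normalization, where it turned. Median-of-ratios factors set this median near 0 by construction. Promoters at least 2-fold higher in ES numbered 3660 with quantile normalization, and at 4-fold 1964 were lower. With deciles in place of quartiles, 35 promoters passed from the lowest of PD to the highest of ES and 0 from the highest of PD to the lowest of ES. Deciles and the 4-fold threshold give smaller counts by construction. The rho of ES and PD was 0.18 with at least 20 counts in both and 0.20 after thinning. The ES counts in the PD lower group were 54.9% without the promoter with the most counts and 54.6% after background subtraction. For MSTRG.16464 the log2 ratio, 8.71 with column sums, was 7.24 with quantile normalization and 12.08 after background subtraction. For MSTRG.25815, at 8.73, quantile normalization gave 7.14, median-of-ratios factors 7.53 and background subtraction 10.89. For MSTRG.12373, at -5.14, TMM factors gave -5.58, quantile normalization -5.64, median-of-ratios factors -6.36 and background subtraction -10.77. For MSTRG.8339, at -4.56, the values were -5.00, -5.07, -5.79 and -6.82 in the same order. After background subtraction a level of 0 leaves the ratio to the added count. The ES bin with the highest PD median, the 13th, became bin 12 after thinning and bin 14 with at least 20 PD counts, both tried after seeing the data. PD depth limits the weak promoters: its 10th percentile, 7 counts, has an interval of 2.81 to 14.4.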

Other observations

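The 56 promoters with 0 counts in PD, which allow up to 0.622 CPM each (3 counts), were mostly weak in ES too. Their ES counts ran from 12 to 1431 with a median of 68 (3.78 CPM), and 50 of the 56 were in ES quartile 1 and 0 in quartile 4. ES was at least 2-fold above the PD limit at 49 of them and at least 10-fold above it at 16. In LZ, 33 of the 56 also had 0 counts, and the highest had 21.

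Promoters of loci with consecutive numbers had weakly similar changes of rank from PD to ES. The rho was 0.11 over 5901 such pairs. It did not fall steadily with distance, at 0.06 for numbers that differ by 2, 0.07 by 3, 0.03 by 5, 0.07 by 10, 0.01 by 50 and -0.01 by 100. For the levels themselves, the rho was 0.23 in PD and 0.10 in ES for consecutive loci, and 0.16 and 0.11 for numbers that differ by 3. Pairs share promoters and libraries, and the labels do not say whether consecutive numbers are neighbours in the genome.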
